A study of Mus musculus with 5 samples.

Results

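The genes described here encode the collagens, the laminin chains and the integrins, the main fibrous matrix proteins, the main basement membrane proteins and the cell surface receptors that bind both. They were chosen by name, as the rows of the deposited count table whose symbol begins with Col, Lama, Lamb, Lamc, Itga or Itgb followed by a digit, or with Itga followed by a letter. This gave 60 of 16347 genes, which were 30 collagens, 8 laminin chains, 13 integrin alpha chains, 6 integrin beta chains and 3 genes of other function that share the spelling. Those 3 were Col4a3bp, which encodes a ceramide transporter, Itgb1bp1.1, which encodes a protein that binds the tail of the integrin ITGB1, and Itgb3bp, which encodes a centromere protein.

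The data were counts from single cells of 3-month-old mice, sorted by fluorescence and made into libraries with Smart-seq2, a full-length cDNA method without molecular identifiers. There were 5 samples in 5 groups of 1 sample each. The lateral ventricle, the third ventricle, midbrain and spinal cord samples came from FoxJ1CreERT2 R26TdT mice (10 animals, 5 females and 5 males), in which an inducible Cre under the Foxj1 promoter switches on a tdTomato reporter. The last sample was midbrain of Nkx2-2Cre R26TrapC mice (7 animals, all female), in which Cre follows Nkx2-2, so that the reporter also stays on in descendants of cells that once made it. No label tied a cell to an animal, the labels gave the tissue of all samples as adult mouse brain, and line, sex and part of the sequencing project cannot be told apart between the 2 lines.

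Midbrain cells were split in a fixed order by Ccdc153, a gene of motile cilia, at 1000 CPM (reads of a gene scaled to the class or cell total in the usual way), then by Sspo, which encodes the SCO-spondin secreted by the subcommissural organ, at 500 CPM, then by Mog, a myelin gene, at 500 CPM, and the rest were called other. The Foxj1 line midbrain gave 317 Ccdc153-high, 196 Sspo-high, 0 Mog-high and 34 other cells, and the Nkx2-2 line gave 19 Ccdc153-high, 12 Sspo-high, 243 Mog-high and 53 other cells. The lateral ventricle sample held 240 cells, the third ventricle sample 245 and the spinal cord sample 114. Of the 317 Ccdc153-high cells, 16 (5.05%) also had Sspo at 500 CPM or more. The median depth lay between 606242 and 759184 reads per cell in the Foxj1 line classes and reached 1362236 reads in the Mog-high cells. All 7 ependymal markers (Foxj1, Ccdc153, Tmem212, Rarres2, Dynlrb2, Pifo and Cfap126) were read in the 4 regions, with a summed level of 13382 CPM in the lateral and 12595 in the third ventricle, 13174 in the midbrain Ccdc153-high cells and 7542 in the spinal cord. Ccdc153, which set the midbrain class, is in these sums. Each group being 1 sample, no test was possible and no replicate error can be given. A level is the CPM of all reads of a class, and the spread within a sample is given over blocks of 96 consecutive cell numbers, which are not replicates. Cell numbers were taken to follow the wells listed in the sample titles, which no file states, and the blocks and the wells assigned to a sequencing project rest on this. A gene was called higher or lower when its level plus 1 CPM differed at least 2-fold with at least 10 CPM on the higher side.

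Laminins are secreted as trimers of an alpha, a beta and a gamma chain, and they join collagen IV, nidogen and perlecan in the basement membrane. Integrins are pairs of an alpha and a beta chain that hold cells to these proteins and signal from them. Ependymal cells line the ventricles mostly without a continuous basement membrane, but small folded pieces of one, called fractones, reach them in the wall of the lateral ventricle. The subcommissural organ is a gland of modified ependymal cells at the roof of the aqueduct.

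The start regions of 4 members whose differences are described below are shown first. Lamb1, Col6a5 and Itga5 had no read in the spinal cord sample, and Lamb2, another beta chain, was high there. The sequences are from RefSeq on GRCm38.p6, in which 41 of the 60 members had a start window, and each runs 5′ to 3′ on the strand of its gene over the longest stretch outside any exon within the 250 bases before the start, so that those of Lamb1 and Lamb2 end before the RefSeq start. Lamb1 (laminin beta chain, plus strand) is at chr12:31265043-31265233, Lamb2 (laminin beta chain, plus strand) at chr9:108479612-108479735, Col6a5 (a collagen VI chain, minus strand) at chr9:105960644-105960893 and Itga5 (the alpha chain of the fibronectin receptor, minus strand) at chr15:103366792-103367041. Capitals mark a match to the half-site of the NFI factors, TTGGCA read on the opposite strand, which only the Col6a5 window of these 4 held.
Lamb1: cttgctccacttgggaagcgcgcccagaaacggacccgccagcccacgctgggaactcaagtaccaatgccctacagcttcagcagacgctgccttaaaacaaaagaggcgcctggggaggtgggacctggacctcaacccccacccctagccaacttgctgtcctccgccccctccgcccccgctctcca
Lamb2: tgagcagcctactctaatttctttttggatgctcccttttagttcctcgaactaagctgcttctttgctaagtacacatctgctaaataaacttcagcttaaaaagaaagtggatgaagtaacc
Col6a5: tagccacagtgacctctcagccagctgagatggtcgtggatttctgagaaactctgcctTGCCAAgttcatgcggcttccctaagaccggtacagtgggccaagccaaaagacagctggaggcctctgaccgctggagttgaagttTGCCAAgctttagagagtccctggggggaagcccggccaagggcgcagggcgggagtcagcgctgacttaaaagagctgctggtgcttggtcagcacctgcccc
Itga5: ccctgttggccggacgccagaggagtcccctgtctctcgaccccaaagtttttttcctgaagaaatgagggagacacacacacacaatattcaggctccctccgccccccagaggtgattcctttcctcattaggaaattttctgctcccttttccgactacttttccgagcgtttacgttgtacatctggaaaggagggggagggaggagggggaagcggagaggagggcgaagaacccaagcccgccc

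The 2 matches in the Col6a5 window began 191 and 104 bases before the start. The motifs were searched on both strands, and no match of one overlapped a match of another in these windows. The NFI half-site TTGGCA was in 8 of the 46 member windows (17.4%) and in 12.3% of all 32851 windows, and the SOX core CATTGT was in 1 (2.17%) against 10.7%. The forkhead core TGTTTAC was in 0 member windows against 3.17%, and the RFX half-site GTTGCC was in 5 (10.9%) against 10.4%. A match is a run of letters and not a site shown to be bound.

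Within any 1 class, fewer than 30 of the 60 members were at 10 CPM or more. Of the 60, 46 reached 10 CPM in a class of at least 20 cells and 14 did not, and 31 reached it in a region of the Foxj1 line. In all 4 regions together 19 members were at 10 CPM or more in each one, and 6 were under 1 CPM in every one. The number at 10 CPM or more was 27 in the lateral and 24 in the third ventricle, 25 in the midbrain Ccdc153-high cells and 22 in the spinal cord, and it was 17 in the Sspo-high, 10 in the Mog-high and 23 in the Nkx2-2 line other cells. Between 45.6% and 59.5% of all genes were at 10 CPM or more in a class. The 14 that stayed under it were the collagens Col12a1, Col13a1, Col22a1, Col4a3, Col4a4, Col6a2, Col6a3 and Col7a1, the integrins Itga10, Itga2, Itga4, Itgad and Itgae, and Col4a3bp. Nearest to the threshold from below were Col4a3 at 9.87 CPM and Col4a3bp at 9.42 CPM, both in the Sspo-high cells.

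**Figure D1:**
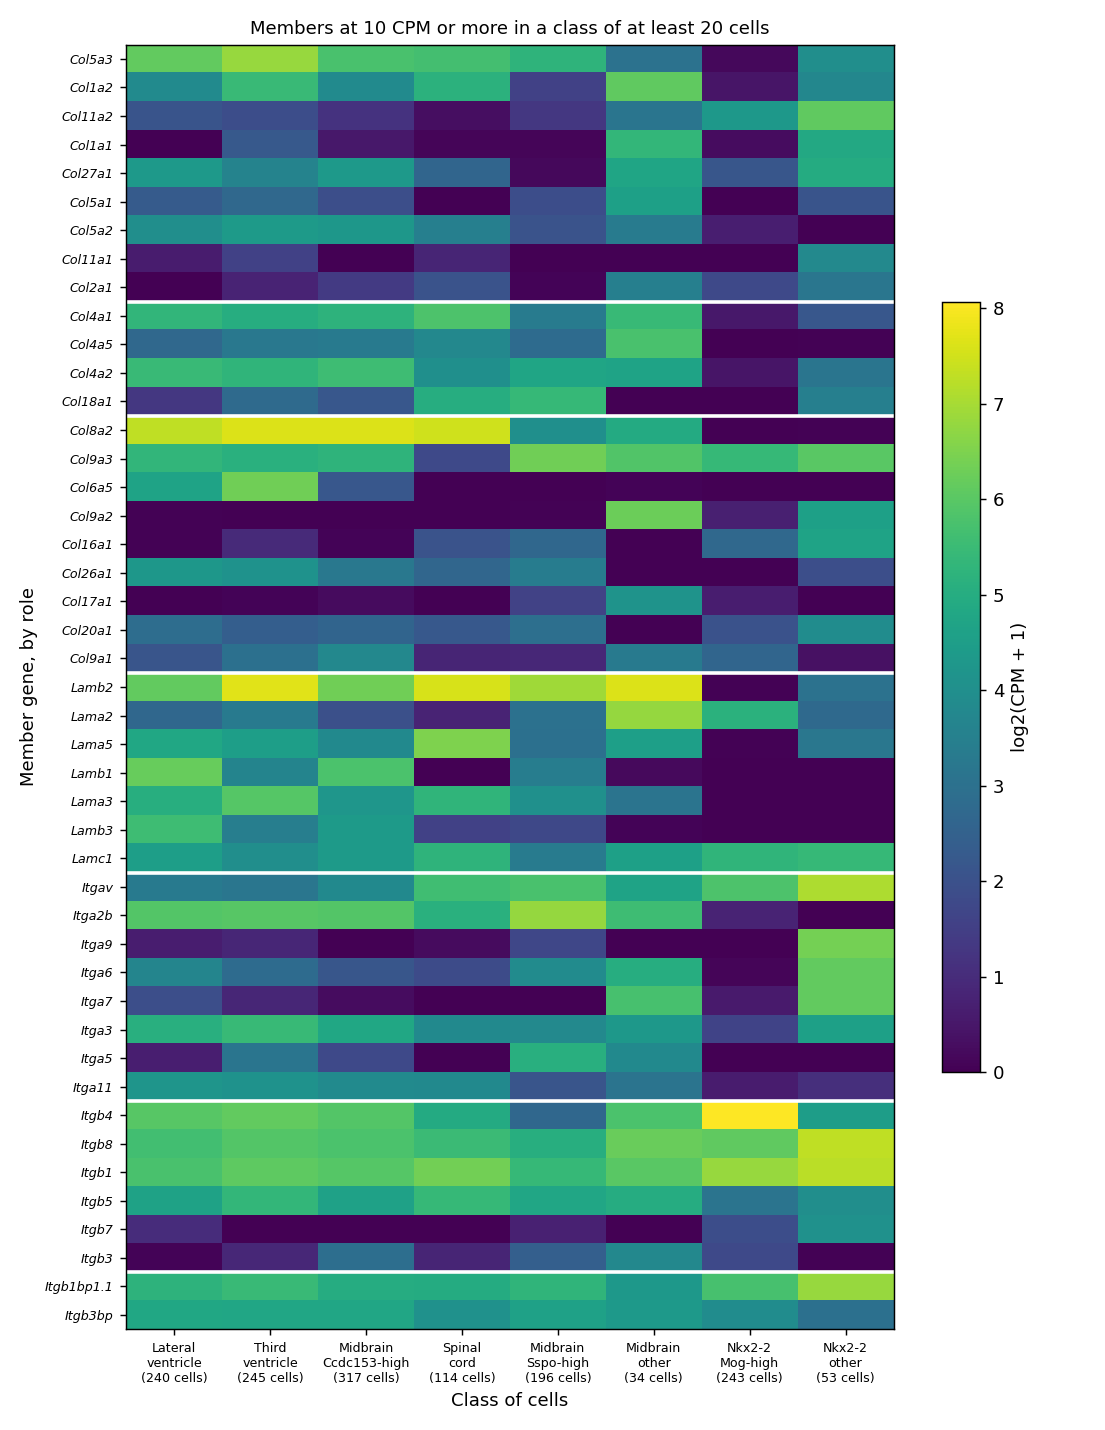
Level of the members at 10 CPM or more in a class of at least 20 cells (1 of the 46 is not shown), as log2(CPM + 1), in rows grouped by role (white lines) and columns by class with its number of cells. Col8a2 is bright in the columns of the 4 regions and dim in the Sspo-high column and the Mog-high and other columns of the Nkx2-2 line. Itgb4 is brightest in the Mog-high column at 268 CPM.

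Across the 4 regions several laminin chains and collagens differed, while Itgb1, Itgb5 and Itgb8 were called in none. Of the laminin beta chains, Lamb1 and Lamb3 had their highest level in the lateral ventricle and were low or unread in the spinal cord, while Lamb2 was highest in the third ventricle and spinal cord. The spinal cord further stood out by high Lama5, Col18a1 and Itgav, and the third ventricle by Col6a5. Each region was compared with the mean of the other 3. Since each region also enters the means of the others, these 4 comparisons share their samples.

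In the lateral ventricle, 4 of the 29 members at 10 CPM or more on either side were higher, against 1.71% of all genes tested, and 4 were lower, against 3.62%. Their median log2 difference was -0.04, as for all genes. Lamb3, Lamb1 and Itga6 were among those higher, and those lower were Col18a1, Lamb2, Itgav and Col1a2. In the third ventricle 3 of 27 members were higher (3.91% of all genes) and 3 lower (2.92%), with a median of 0.27 against -0.01 for all genes. Higher were Col6a5, Col1a2 and Lama3, and lower were Lamb1, Itgav and Lamb3. Without 1 block of cells the count of higher members moved to 1 (without block 2 of the third ventricle, block 2 of the lateral ventricle or block 6 of the midbrain) or to 8 (without block 3 of the third ventricle).

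In the midbrain Ccdc153-high cells 1 of 28 members was higher, the cartilage-type collagen Col9a1 (1.74% of all genes), and 5 were lower (2.99%), with a median of -0.17 against -0.00. The 5 were Col6a5, Lama5, Col18a1, Lama3 and Col1a2. The Col18a1 call ended with the mean of per-cell CPM (log2 -0.96) and with the class thresholds halved (-0.66), and that of Col1a2 with the mean of per-cell CPM (-0.96), the deposited normalized values (-0.95) and the first project's midbrain wells (-0.73). The count of higher members became 2 without lateral ventricle block 1 or 3 or midbrain block 2 or 3. In the spinal cord 3 of 28 members were higher (7.4% of all genes) and 9 lower (10.1%), with a median of -0.27 against 0.02. The higher members were Col18a1, Itgav and Lama5. The lower members were Lamb1, Col6a5, Col9a3, Lamb3, Col27a1, Col4a2, Itga3, Col26a1 and Itgb4. With the deposited normalized values 6 of them were called, and the Col26a1 call ended there (log2 -0.58) and with the mean of per-cell CPM (-0.72).

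Of the laminin beta chains, Lamb1 (gene at chr12:31265234-31329644, plus strand, 9917 exon bases), which is found in many basement membranes, had 71.7 CPM in the lateral ventricle (95% Poisson interval 70.4 to 72.9), 11.6 in the third ventricle (11.1 to 12.1), 54.3 in the midbrain Ccdc153-high cells (53.4 to 55.3) and 0 in the spinal cord. The spinal cord had 0 of 94640544 reads and a read in 0 of its 114 cells, a share whose 95% interval reaches 3.18%. That interval takes the cells as independent and covers no spread between animals. A single spinal cord cell gave 1.94 CPM of Lamb3, so the read depth alone does not bound the level of an unread gene. The blocks lay at 85.3, 37.1 and 92.3 CPM in the lateral ventricle, at 13.9, 10.4 and 10.9 in the third ventricle and between 34.4 and 79.1 over 7 midbrain blocks. Lateral ventricle and midbrain blocks thus overlapped, and all of them lay above those of the third ventricle. A read of Lamb1 was found in 48.3%, 13.1%, 40.4% and 0% of the cells in the same order, or 37.1%, 11%, 28.1% and 0% after each cell was thinned to 20000 reads. In the Mog-high cells Lamb1 was read in 0.823% of cells at about double the depth of the regions. Being of another line and sample, they cannot gauge the background in the region samples. Intervals here and below cover counting error only, since such reads are copies and not separate molecules.

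Lamb2 (chr9:108479736-108490530, plus strand, 6082 exon bases), the beta chain known from the glomerulus, the neuromuscular junction and the pial basement membrane, ran the other way. It had 68.8 CPM in the lateral ventricle (67.6 to 70.1), 206 in the third ventricle (204 to 208), 78.2 in the midbrain Ccdc153-high cells (77.1 to 79.3) and 192 in the spinal cord (189 to 194). The blocks lay at 61.6, 53.6 and 94.6 CPM in the lateral ventricle, 235, 265 and 135 in the third ventricle, and 198 and 180.1 in the spinal cord. The midbrain blocks spread from 18.9 to 148 CPM, so that the highest of them passed the lowest block of the third ventricle. Per kilobase of exon Lamb2 exceeded Lamb1 in every region, by 11.3 to 7.23 CPM per kb in the lateral ventricle, 12.9 to 5.48 in the midbrain and 33.9 to 1.17 in the third ventricle. Spinal cord cells had 31.5 CPM per kb of Lamb2 beside no read of Lamb1.

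Lama3 and Lamb3 encode the alpha and beta chains of the epithelial laminin that anchors hemidesmosomes. The beta chain gene Lamb3 had 46.4 CPM in the lateral ventricle (blocks 38.3 to 58.5), 9.92 in the third ventricle (5.74 to 16.1), levels of 13.6 to 32 over the blocks of the midbrain and 1.94 in the spinal cord, where all 184 reads came from 1 cell. The lateral ventricle blocks did not overlap those of any other region. The call of Lamb3 as lower in the third ventricle ended without block 1 (log2 -0.92) or block 3 (-0.95) of that region. Lama3 did not share this order, with 32.2, 60.6, 18.1 and 37.9 CPM in the lateral ventricle, the third ventricle, midbrain and spinal cord. Its call as higher in the third ventricle was at the edge, with a log2 difference of 1.02, and it ended with only the midbrain wells of the first sequencing project and with the class thresholds doubled.

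The other alpha chains and the common gamma chain were as follows. Lama5, the alpha chain of most adult epithelial and vascular basement membranes, had 89.6 CPM in the spinal cord (87.7 to 91.5) against 27.3, 21.9 and 13.1 in the lateral and the third ventricle and the midbrain, and was read in 44.7% of spinal cord cells. The 2 spinal cord blocks, at 89.3 and 90.1 CPM, lay above all others, of which the highest was a midbrain block at 41.1 CPM. Lamc1, the gamma chain of most laminins, had 21.8, 14.7, 20.2 and 36.9 CPM, and it was not called in any region. Lama2, the alpha chain of muscle and Schwann cell basement membranes, stayed between 0.729 and 8.77 CPM.

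**Figure D2:**
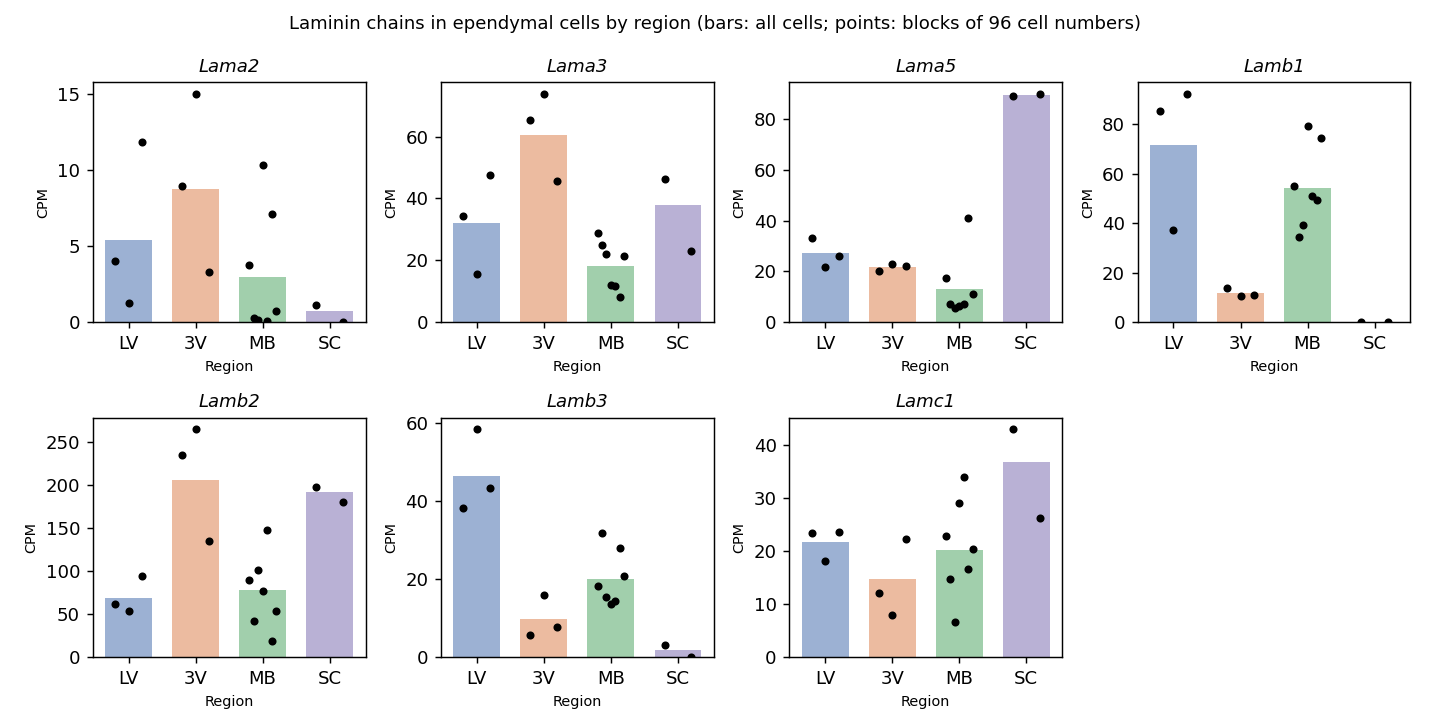
Level in CPM of 7 laminin chains in the lateral ventricle (LV), the third ventricle (3V), midbrain Ccdc153-high cells (MB) and spinal cord (SC), each panel with its own scale from 0; bars are all cells of a region and points are blocks of 96 cell numbers, which are not replicates. Lamb1 is 71.7 CPM in LV and 0 in SC, while Lamb2 is 206 CPM in 3V and 192 in SC, and Lama5 is highest in SC at 89.6 CPM.

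Of the fibrillar collagens, which form the banded fibres of connective tissue, the one highest per length was Col5a3 (chr9:20770050-20815067, minus strand), a chain that regulates fibre assembly. It had 69.7 CPM in the lateral and 113 in the third ventricle, 52.8 in the midbrain and 49.4 in the spinal cord, or 10.2, 16.6, 7.75 and 7.25 CPM per kb. Its blocks in the third ventricle, 84.5 to 142 CPM, overlapped those of the midbrain, 29.8 to 89.1. Col1a2, a chain of the main collagen of bone and skin, had 13.5, 43.8, 13.4 and 35.5 CPM in the same order, while Col1a1, which forms that collagen with it, had at most 3.75 CPM in a region. The Col1a2 call in the third ventricle (log2 1.04) ended at 0.60 without block 2 of the third ventricle, at 0.81 without spinal cord block 1 and at 0.94 with the first project's midbrain wells only, and at 0.98 without the 2% of cells with the most genes. Col27a1 had 19.8, 11.1, 19 and 5.19 CPM. Its call as lower in the spinal cord (log2 -1.51) ended without spinal cord block 1, at -0.22.

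Of the basement membrane collagens, Col4a1 and Col4a2 encode the chains of the common collagen IV network, lie head to head on chromosome 8 and share 22 exon bases on opposite strands. Col4a1 had 39.1, 31.5, 36 and 55.9 CPM in the lateral ventricle, the third ventricle, midbrain and spinal cord, and Col4a2 had 43.1, 37.7, 46.4 and 15.4 CPM. The 2 genes thus parted in the spinal cord, where the Col4a1 blocks were at 54.7 and 56.6 CPM and the Col4a2 blocks at 15.1 and 16 CPM. The spinal cord Col4a2 blocks lay below all blocks of the other regions, which started at 26.5 CPM. Of the cells with a read of Col4a1, 50.6% in the lateral ventricle also had one of Col4a2, against 39% of those without, and the shares were closer in the third ventricle (40.4% and 36.5%), midbrain (35.4% and 33.2%) and spinal cord (17.9% and 13.3%). Col4a5, a chain of other collagen IV networks, was at most 12.5 CPM in a region, in the spinal cord, and Col4a4 at most 1.96 CPM.

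Col18a1 (chr10:77052178-77166548, minus strand) encodes the basement membrane collagen whose end is released as endostatin. It had 1.46 CPM in the lateral ventricle (1.29 to 1.65), 5.96 in the third ventricle, 3.54 in the midbrain and 31.6 in the spinal cord (30.5 to 32.8). The spinal cord blocks, at 17.2 and 56.7 CPM, lay above all others, of which the highest was 10.3 CPM. It was read in 13.2% of spinal cord cells and in 1.25% of lateral ventricle cells. The calls of Col18a1 as lower in the lateral ventricle and the midbrain rested on the spinal cord value in the mean, since no other region reached 10 CPM.

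Of the remaining collagens, Col8a2 (chr4:126286793-126314330, plus strand), a short-chain collagen of the cornea's Descemet membrane, was the highest member per length in every region, and it was called in none. It had 156 CPM in the lateral and 201 in the third ventricle, 198 in the midbrain and 177 in the spinal cord, or 34.7, 44.9, 44 and 39.3 CPM per kb, and was read in 73.7% to 87.3% of cells. Col6a5 (chr9:105856078-105960643, minus strand) was the opposite case. It had 24.8 CPM in the lateral ventricle (24.1 to 25.6), 79.2 in the third ventricle (78 to 80.4) and 3.54 in the midbrain (3.31 to 3.78). In the spinal cord none of the 114 cells had a read of it. The third ventricle blocks were at 64.4, 110.2 and 63.5 CPM and the lateral ventricle blocks at 33.3, 4.47 and 36.5. The 2 regions did not overlap, and the second lateral ventricle block stood apart from its own region and lay within the midbrain range of 0 to 9.77 CPM. Col6a2 and Col6a3, other collagen VI chains, were at most 2.89 CPM and 0.123 CPM in the third ventricle there. Col9a3, a chain of the cartilage collagen IX, had 38.6, 33.9, 36.9 and 2.43 CPM, and its partner Col9a2 at most 0.0387 CPM in a region.

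Of the 6 integrin beta chains only Itgb4 was called in a region. Itgb1, the partner of most matrix-binding alpha chains, had 53.4, 66.2, 59.9 and 80.9 CPM in the lateral ventricle, the third ventricle, midbrain and spinal cord. Itgb8, which with ITGAV binds and activates latent TGF-beta, had 48.1, 59.4, 54.6 and 44.4 CPM. Itgb5, another partner of ITGAV, had 24.2, 39.5, 23.8 and 41.2 CPM. Itgb4, which with ITGA6 binds laminin in hemidesmosomes, had 61.9, 69.1, 59.5 and 29.5 CPM, and its call as lower in the spinal cord (log2 -1.08) ended at -0.95 without spinal cord block 1 and just under 2-fold without lateral ventricle block 3. Itgb7 was at most 1.03 CPM and Itgb3 at most 6.63 CPM in a region.

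The alpha chains differed more. Itgav (chr2:83724397-83806916, plus strand), the alpha chain of the receptors for vitronectin and latent TGF-beta, had 9.1 CPM in the lateral and 7.99 in the third ventricle, 13.3 in the midbrain and 47.3 in the spinal cord (45.9 to 48.7). The spinal cord blocks, at 27.5 and 58.7 CPM, overlapped the midbrain blocks, which ran from 1.02 to 38.2 CPM. Its calls as lower in the lateral and the third ventricle rested on the spinal cord value in the mean they were set against, and ended without spinal cord block 1 (log2 -0.77 and -0.97). Itga6, the laminin-binding partner of ITGB4, had 11.8, 6.04, 3.5 and 2.6 CPM, and the spinal cord reads came from 1 cell. Of the lateral ventricle cells with a read of Itga6, 76.1% had one of Itgb4, against 51% of those without, and the shares were 78.9% and 51.8% in the third ventricle but 27.3% and 41% in the midbrain. Itga3, another laminin receptor chain, had 33.2, 42.4, 26.9 and 13.3 CPM, and its spinal cord call (log2 -1.30) ended at -0.88 without spinal cord block 1.

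Itga2b, best known as the platelet chain that pairs with ITGB3 to bind fibrinogen, was the highest alpha chain per length in every region. It had 59, 62.3, 59.1 and 33.9 CPM in the lateral ventricle, the third ventricle, midbrain and spinal cord, or 10.8, 11.4, 10.8 and 6.22 CPM per kb, and was read in 26.3% to 51% of cells. Its usual partner Itgb3 had 0.00937, 0.149, 1.12 and 0.134 CPM per kb in the same samples. In the Sspo-high cells the levels were 20.4 CPM per kb of Itga2b and 0.755 of Itgb3. Itga11, a collagen receptor chain, was read in 47.4% to 75.1% of the cells of every class, at levels of only 0.53 to 17.4 CPM. After thinning to 20000 reads it was left in 17.6% of the third ventricle's cells and 1.65% of Mog-high cells, and Col4a3 behaved alike, read in 25% to 58.3% of cells at 0.394 to 9.87 CPM.

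Markers of other cell types moved with some regions. The 3 mural markers in the table (Acta2, Tagln and Pdgfrb, of 7 listed) summed to 829 CPM in the lateral and 539 in the third ventricle, 208 in the midbrain and 99.6 in the spinal cord, nearly all from Acta2 and Tagln, while Pdgfrb was at 0.105 to 1.76 CPM. Of the endothelial list only Kdr was in the table, at 15.9, 4.76, 7.96 and 21.8 CPM, and of the fibroblast list only Pdgfrb. The 4 microglial markers summed to 0.771 to 8.32 CPM. Without the cells (154 in the lateral and 130 in the third ventricle, 113 in the midbrain and 31 in the spinal cord) at 100 CPM or more of these lists, all 8 lateral ventricle calls held. The calls of Lamb3 in the third ventricle, Col1a2 in the midbrain and Itgb4 in the spinal cord did not. Neuron markers summed to 249 CPM in the spinal cord against 3.96 to 32.5 in the other regions, and 5 oligodendrocyte markers (Mog, Mag, Mobp, Cldn11 and Mbp) to 148 CPM against 56.2 to 78.7. The 5 astrocyte markers summed to 1039 CPM in the third ventricle against 417 to 666 in the others, with Gjb6 and Aldoc called higher there. The 3 choroid plexus markers in the table (of 5 listed) summed to 237 CPM in the third ventricle, where Ttr and Folr1 were called lower, and to 463 to 577 in the others, with Clic6 higher in the lateral ventricle and lower in the spinal cord and Ttr higher in the midbrain. The part of these in the regional results was not tested.

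The other genes of the pathway were taken from 5 lists. Of the 14 basement membrane partners in the table, 8 were at 10 CPM in the third ventricle comparison, with 2 higher and 2 lower, and 9 in the spinal cord comparison, also with 2 higher and 2 lower. Sparc, a collagen-binding matrix protein, had 1144 CPM in the lateral and 3292 in the third ventricle, 1201 in the midbrain and 623 in the spinal cord, and was called in both directions accordingly. Egflam, which encodes the dystroglycan ligand pikachurin, had 3.54, 5.81, 15.5 and 69.3 CPM, and Fn1, which encodes fibronectin, had 1.36, 2.17, 2.48 and 13.4 CPM, both highest in the spinal cord. Nid1, the nidogen that links laminin to collagen IV, was at most 3.97 CPM in a region.

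The collagen biosynthesis list (22 genes in the table) had 0 higher and 1 lower of 13 in the lateral ventricle, 2 and 0 of 15 in the third ventricle, 0 and 1 of 14 in the midbrain, and 2 and 4 of 14 in the spinal cord. The shares of all genes called higher and lower, 1.71% and 3.62% in the lateral ventricle, 3.91% and 2.92% in the third ventricle, 1.74% and 2.99% in the midbrain and 7.4% and 10.1% in the spinal cord, are the background to these small counts. Plod2, a lysyl hydroxylase that prepares collagen crosslinks, had 29.9, 48.8, 25.8 and 91.9 CPM. Of the integrin adhesion core, the proteins that tie integrins to actin, 1 of 13 or 14 genes was higher in the third ventricle (Tns1) and in the spinal cord (Vcl), 1 of 13 was lower in the midbrain (Tln2) and 0 of 13 were called in the lateral ventricle. Of the non-integrin receptors, Ddr2, Bcam and Sdc3 were higher in the third ventricle, and Dag1, which encodes the laminin receptor dystroglycan, had 76.5, 109, 94.6 and 118 CPM and was not called in a region. Of the matrix proteases and their inhibitors, 1 of 9 genes was lower in the lateral ventricle (Timp4), 1 of 9 higher in the third ventricle (Mmp2), and in the spinal cord 1 was higher (Adam10) and 2 lower (Mmp2 and Timp3).

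Within the Foxj1 line midbrain, the Sspo-high cells had lower levels of 6 collagens, 3 laminin chains and 2 integrin alpha chains than the Ccdc153-high cells, and higher levels of 3 other integrin alpha chains. Col8a2, Lamb1, Col27a1, Col4a1 and Itgb4 were lower in them, while Itga5, Col18a1, Itgav and Itga6 were higher. Of 28 members at 10 CPM or more, 12 (42.9%) were lower, against 14.5% of all genes, and 5 (17.9%) were higher, against 17.4%. The median log2 difference over the members was -0.79, against 0.16 over all genes. Both classes came from the same sample and line, and both had cells in all 7 blocks of the midbrain. The summed level of the collagens was 266 CPM in the Sspo-high and 483 CPM in the Ccdc153-high cells, that of the laminin chains 175 and 209 CPM, and that of the integrin alpha chains 241 and 127 CPM. Itga2b, Itga3 and Itgav were at 10 CPM or more in both classes.

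Among the integrins, Itga5 (chr15:103344286-103366763, minus strand) had 33.2 CPM in the Sspo-high cells (32.4 to 34.1) and 2.47 in the Ccdc153-high cells (2.28 to 2.67), 13.4-fold higher, and was read in 29.6% and 3.47% of cells. Its 7 blocks ranged from 8.1 to 48.1 CPM in the first class and from 0 to 5.77 in the second, without overlap. In the other regions it had 0.591 CPM (lateral ventricle), 7.71 (the third ventricle) and 0 (spinal cord). Itgav had 52.6 against 13.3 CPM, 3.94-fold, and was read in 52% against 13.6% of cells, with blocks of 5.44 to 99.4 and 1.02 to 38.2 CPM that overlapped. Itga6 had 13.8 against 3.5 CPM, and its blocks split within the class: 3 lay at 32.8, 29.9 and 19.5 CPM and 4 between 0.0664 and 1.84 CPM. Its call (log2 1.71) ended with the class thresholds halved, at 0.91.

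The beta chains gave no parallel gain in the Foxj1 line. Itgb1 had 41 CPM in the Sspo-high cells against 59.9, Itgb8 32.1 against 54.6 and Itgb5 26.5 against 23.8, and none of these was called. Itgb4 had 5.47 against 59.5 CPM and was read in 6.12% against 40.1% of cells. Of its reads in the Sspo-high cells 79.6% came from 1 cell, and that cell's block alone was at 30.0 CPM while the other 6 were at most 1.26 CPM. Of the 55 Sspo-high cells with a read of Itga6, only 1 also had one of Itgb4. Itga11 (3.33 against 13.6 CPM) and Itga3 (12.8 against 26.9 CPM) were lower, and the call of Itga3 (log2 -1.02) ended without midbrain block 1, 2, 3 or 7, at -0.89 to -0.96.

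Among the collagens, Col8a2 had 15.3 CPM in the Sspo-high cells (blocks 9.48 to 28.7) and 198 in the Ccdc153-high cells (93 to 279), 12.9-fold lower, and was read in 23% against 79.5% of cells. Col27a1 had 0.128 against 19 CPM, Col9a1 0.874 against 12.6, Col5a2 3.16 against 18.5, Col1a2 1.97 against 13.4 and Col4a1 9.23 against 36. Col4a2 had 25.6 against 46.4 CPM and was not called. Col18a1 was the basement membrane collagen called higher, with 41.2 CPM (blocks 11.5 to 82.5) against 3.54 (0 to 10.3), 11.6-fold and without overlap. Col4a3 (9.87 against 3.03 CPM) and Col4a4 (1.83 against 0.0469) also lay higher, but under 10 CPM. Col4a5 (6.06 against 8.73) and Col7a1 (1.99 against 2.13) lay slightly lower. Col4a3 was called higher with the deposited normalized values, the mean of per-cell CPM and the class thresholds halved or doubled. Col9a3 had 79.4 against 36.9 CPM, and its call (log2 1.09) ended without midbrain block 3 (0.76) or 6 (0.96), under size factors from medians of ratios (0.91) and with the class thresholds halved (0.65).

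Among the laminins, Lamb1 had 9.75 CPM in the Sspo-high cells (blocks 0.597 to 14.6) against 54.3 (34.4 to 79.1), 5.57-fold lower and without overlap, and Lamb3 0.357 against 3.03 CPM per kb. Lamb2 had 119 CPM against 78.2 and was not called, so that the ratio of the beta chains in these cells, 19.6 CPM per kb of Lamb2 to 0.983 of Lamb1, was nearer to that of the third ventricle. Lamc1 had 9.2 against 20.2 CPM (log2 -1.06), and its call ended at -0.75 with the class thresholds halved. Lama3 and Lama5, at 15.7 and 6.91 CPM, were not called.

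**Figure D3:**
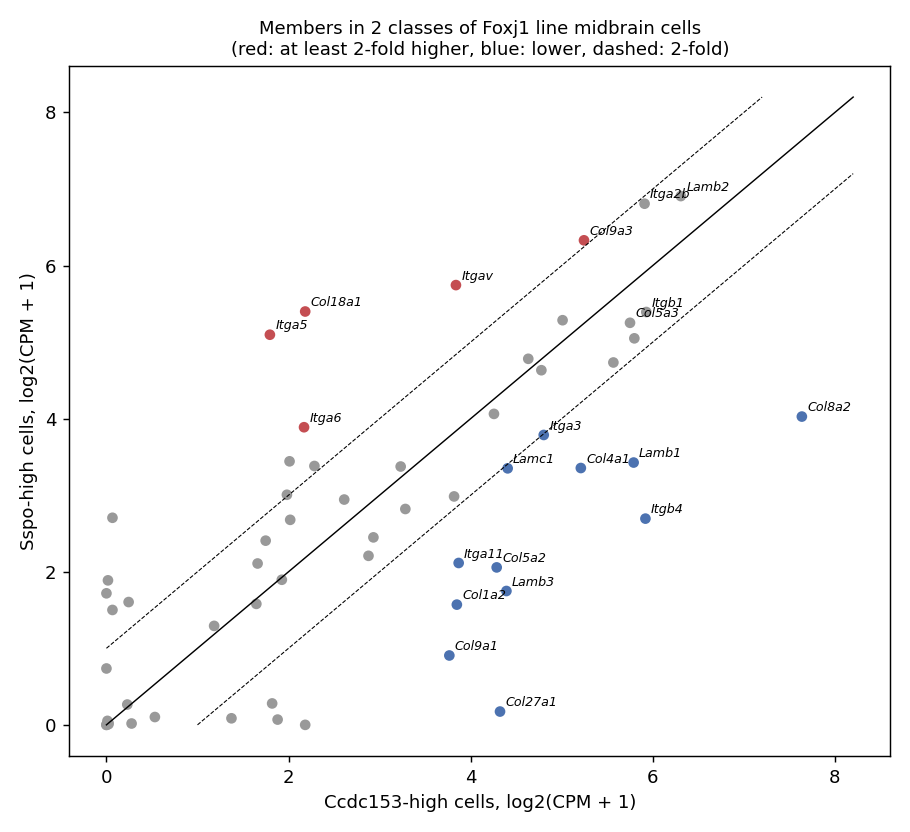
Each point is 1 of the 60 members, with its level as log2(CPM + 1) in the 317 Ccdc153-high cells (x axis) and the 196 Sspo-high cells (y axis) of the Foxj1 line midbrain; the solid line is equality, dashed lines are 2-fold, and red and blue points are the 5 higher and 12 lower members. Itga5 and Col18a1 lie farthest above the line and Col27a1 and Col8a2 far below it.

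The pathway lists in this comparison had more lower than higher genes where they concerned collagen production and matrix turnover, beside 17.4% of all genes higher and 14.5% lower. Of 16 collagen biosynthesis genes at 10 CPM, 2 were higher (P3h1 and P3h3) and 8 lower, among them P4ha2 (17.6 against 41.7 CPM), a prolyl hydroxylase, Serpinh1 (30.0 against 65), the collagen chaperone HSP47, and Bmp1 (5.57 against 19.8), the procollagen C-proteinase. Of 9 proteases and inhibitors 0 were higher and 6 lower, among them the inhibitors Timp4 (1.69 against 164 CPM) and Timp3 (40.4 against 146). Of 9 basement membrane partners 2 were higher and 3 lower: Vtn, which encodes the integrin ligand vitronectin, had 113 against 20.8 CPM, and Tnc, which encodes tenascin C, 24.2 against 1.18, while Sparc had 92.9 against 1201. The adhesion core had 4 higher (Parva, Lims1, Zyx and Tns2) and 3 lower (Fermt2, Pxn and Flna) of 13. Beside these, the mural markers summed to 3.49 CPM in the Sspo-high and 208 in the Ccdc153-high cells. The ependymal markers summed to 3325 and 13174, but Ccdc153, which set the classes, is in these sums. Of the other ependymal markers, Tmem212, Rarres2 and Dynlrb2 were called lower, and Foxj1, Pifo and Cfap126 were not called. Among choroid plexus markers Ttr had 795 against 37.5 CPM while Folr1 and Clic6 were lower, and among astrocyte markers Aqp4 had 10.6 against 428 CPM while Slc1a2 and Aldoc were higher. The part of these in the results was not tested. Without the 22 Sspo-high and 113 Ccdc153-high cells at 100 CPM or more of vascular, fibroblast and microglial markers, 10 of the 12 lower and 4 of the 5 higher members were still called, and Col9a3, Itga3 and Lamc1 were not.

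The same contrast in the Nkx2-2 line rested on 12 Sspo-high and 19 Ccdc153-high cells, in which single cells often held most reads of a gene, and 31.7% of all genes were called higher and 25.3% lower. Of the 5 members higher in the Foxj1 line, Itga5, Itgav, Itga6 and Col18a1 were also higher, and Col9a3 was lower. Itga5 had 147 against 6.44 CPM and was read in 66.7% against 5.26% of cells. Col18a1 had 66.8 CPM, with reads in 41.7% of cells, against no read in the 19 Ccdc153-high cells. Of the 12 lower members, Col8a2, Lamb1, Col4a1 and Col27a1 were also lower, Col5a2, Itga3 and Lamc1 were higher, Itgb4 was not called and 4 were under 10 CPM. Col8a2 had 31.5 against 192 CPM and Lamb1 0.419 against 60.1 CPM. Of the beta chains not called in the Foxj1 line, Itgb8 (128 against 37.1 CPM) and Itgb5 (58.4 against 7.62) were higher here and Itgb1 (33.9 against 72.6) was lower. In the Sspo-high cells 34.4% of the Itgb8 reads and 64.6% of the Itgb5 reads came from 1 cell. Itgb4 had 54.5 CPM in the Sspo-high and 28.9 in the Ccdc153-high cells, and the 5 oligodendrocyte markers summed to 1466 and 1107 CPM in these 2 classes, against 37924 CPM in the Mog-high cells of the same sample and 43.9 and 78.7 in the Foxj1 line classes. Mog, which set the Mog-high class, is in these sums. The part of these markers in the Nkx2-2 line values was not tested.

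In the Nkx2-2 line, Mog-high cells were set against the other cells of the sample. The Mog-high cells were chosen by Mog, and Mag, Mobp, Cldn11 and Mbp were also called higher in them. They held few members, led by Itgb4, and the other cells held integrin alpha chains and collagens that the Mog-high cells lacked. Of 25 members at 10 CPM or more, 18 (72%) were lower in the Mog-high cells, against 40.6% of all genes, and 2 (8%) were higher, against 11.2%. The median log2 difference was -1.95, against -0.69 over all genes. The scaling matters here: size factors from medians of ratios moved the median gene of the Mog-high cells by 0.46 and that of the other cells by -0.13 (log2), and the counts then were 6 higher and 14 lower.

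Itgb4 (chr11:115974709-116008412, plus strand) had 268 CPM in the Mog-high cells (267 to 270.0) and 21.6 in the other cells (20.2 to 23), 12.4-fold, and was read in 76.1% and 22.6% of cells, or 65% and 5.66% after thinning to 20000 reads. The 5 Mog-high blocks lay between 240.5 and 337 CPM, above the other cells' blocks of 17.6 to 36.7 CPM. At 38.2 CPM per kb it was the highest integrin per length of any class of at least 20 cells. Itga6, its alpha partner in the laminin receptor, had 0.0794 CPM in the Mog-high cells, from 28 reads. Of the Itgb4 exon bases, 537 of 7015 overlap a gene on the opposite strand, and whether counting used strand is not given in the sources used here.

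The other members of note in the Mog-high cells were Itgb1 at 112 CPM, Itgb8 at 67.8, Itgav at 55, Col9a3 at 41.5, Lamc1 at 38.3, Lama2 at 34.7 and Col11a2 at 18.8 CPM. Lama2 had 34.7 against 5.73 CPM in the other cells, 6.05-fold, and 92.8% of the latter reads came from 1 cell. Lamc1 was the other laminin chain above 10 CPM, and of the beta chains Lamb1, Lamb2 and Lamb3 had at most 0.0227 CPM. The count of 2 higher members became 5 without Nkx2-2 line block 1 and 4 without block 4. Itgav (log2 -1.27), Itgb8 (-1.19) and Itgb1bp1.1 (-1.11) were lower in the Mog-high cells by CPM but not under the medians-of-ratios scaling, at -0.69, -0.61 and -0.53.

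The members lower in the Mog-high cells included Itga9, Itga6 and Itga7, which were at 82.1, 69.1 and 69 CPM in the other cells and at 0.00283, 0.0794 and 0.493 CPM in the Mog-high cells. Col1a1 had 28 against 0.215 CPM, Col27a1 30.3 against 3.45, Col11a2 66.9 against 18.8 and Itga3 23.3 against 2.08, the last with 87.6% of its reads in 1 cell and a log2 difference of -2.98 that became -0.54 without Nkx2-2 line block 2. The other cells were a mixture: oligodendrocyte precursor markers summed to 3033 CPM and astrocyte markers to 6598 CPM, against 2.45 and 61.3 CPM in the Mog-high cells. Several calls rested on 1 cell, and without the cell with the most reads of each gene 10 of the 18 were left.

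For description, and after the values had been seen, the 53 other cells were divided by Pdgfra, a receptor of oligodendrocyte precursors, at 100 CPM (28 cells), then by Gjb6, an astrocyte connexin, at 100 CPM (21 cells), with 4 left. Different alpha chains were read in these. Itga9, which with ITGB1 binds tenascin C, had 138 CPM and was read in 57.1% of the Pdgfra-high cells, and had no read in the Gjb6-high cells. Itga6 and Itga7, the laminin-binding alpha chains, had 3.3 and 0 CPM in the Pdgfra-high cells and 208 and 214 CPM in the Gjb6-high cells, each read in 42.9% of the latter. Itgb1 had 201 and 87 CPM, Itgb8 175 and 156, and Itgav 121 and 181, in the same order. Col11a1 (21.6 CPM) and Col27a1 (43.1 CPM) were read in the Pdgfra-high cells, against 0 and 0.0709 CPM, and Col1a1 had 87.1 CPM in the Gjb6-high cells and no read in the Pdgfra-high cells.

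**Figure D4:**
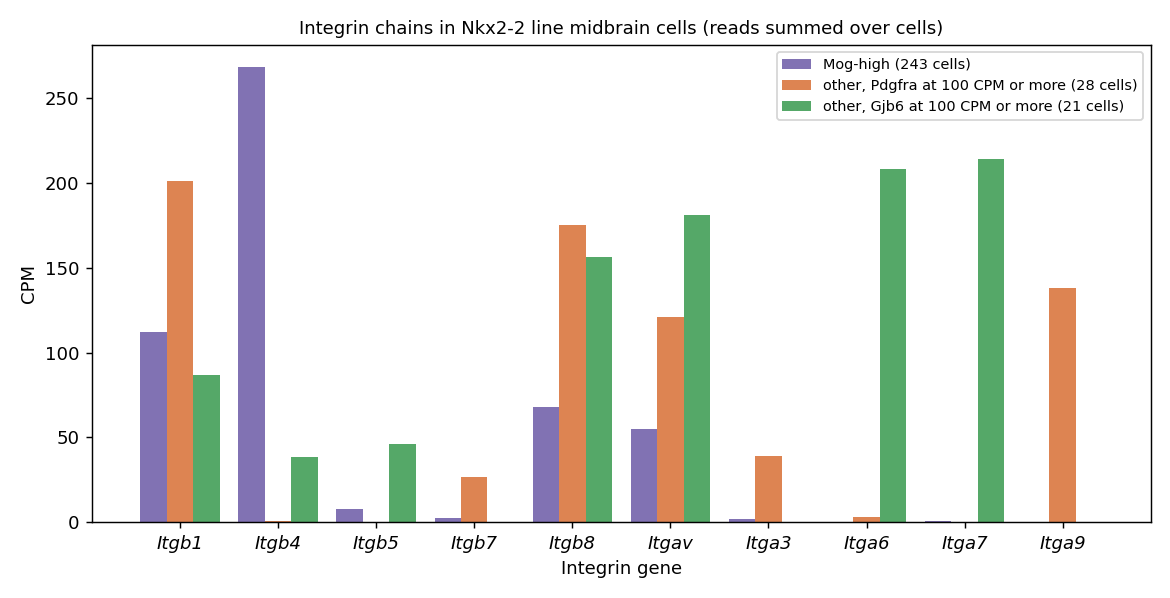
Level in CPM of 10 integrin chains in the Nkx2-2 line Mog-high cells and in the other cells divided by Pdgfra or Gjb6 at 100 CPM; bars are reads summed over the cells named in the key and carry no error, since each class is 1 sample. Itgb4 leads in the Mog-high cells at 268 CPM, Itga9 is at 138 CPM in the Pdgfra-high cells and Itga6 and Itga7 are at 208 and 214 CPM in the Gjb6-high cells.

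Of the pathway lists, 0 basement membrane partners were higher and 5 of 5 lower in the Mog-high cells, and of the proteases and inhibitors 0 were higher and 6 of 9 lower, again with 40.6% of all genes lower. Sparc had 161 against 1784 CPM, Agrn, the heparan sulfate proteoglycan agrin, 25.8 against 123, and Timp4 6.36 against 668. Among the non-integrin receptors, Ddr1 and Mag were higher and 6 of 10 lower, with Dag1 at 12.1 against 92.5 CPM. Of the collagen biosynthesis genes 1 was higher (Adamts2) and 8 lower of 14, and of the adhesion core 1 was higher (Tln1, talin) and 6 lower of 14.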

How the data were processed

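Single cells were sorted into 96-well plates and sequenced by Smart-seq2, per the labels' protocols. The authors deposited raw read counts (whole numbers, a row per gene and a column per cell) and a second table of log2 values. Each deposited log2 value was log2(count / size factor + 1), to within 0.01 in 100% of entries, the size factors running from 0.0875 to 6. STAR 2.3.1o, Seurat 3 and mm10 were named, per the submitters' processing notes. The annotation, counting tool and strand setting are not given in the sources used here. Columns headed Forebrain were assigned to the lateral ventricle sample, and those headed Tanycytes to the third ventricle, from anatomy and the other titles.

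All 1473 cells were used, the shallowest with 108417 reads, and no doublet caller was run, since wells were sorted to hold 1 cell. Counts were summed per class and scaled to CPM (python 3.11.15, numpy 2.4.6, pandas 2.3.3, scipy 1.17.1) with exact Poisson 95% intervals for levels. The rule (2-fold at a pseudocount of 1 CPM, 10 CPM on the higher side) was run on simulated class sums with known 4-fold changes. These held Poisson counting error only, with no spread between cells, blocks or animals. The simulation therefore checks the code and cannot show how often the rule miscalls a gene in these data. All 60 members were matched to GENCODE vM21 for coordinates and exon lengths. Blocks held at least 10 cells of the class. Members were named where among the 3 highest per kb of a role group, or at least 4-fold different with reads in 10% of cells; others named were chosen after their values were seen. The members, lists and thresholds were chosen with earlier results of these data known. Alternatives covered scaling, thresholds, level filters, cell filters, sequencing project and leaving out each block. Values of 1 member and 1 marker gene are not reported here.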

Additional observations from a re-analysis of the deposited data

Results flagged for a closer look

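Of the members that passed the size rule in both lines between Sspo-high and Ccdc153-high midbrain cells, 4 were higher in both and 4 lower in both. The remaining 4 passed in opposite directions. The share of all genes that did so was not counted. In the Nkx2-2 line 31.7% of all genes were called higher and 25.3% lower. The difference between the lines was not tested, since each line was 1 sample. On the log2(CPM + 1) scale, Sspo-high over Ccdc153-high, Col5a2 was at -2.23 in the Foxj1 line and 5.03 in the Nkx2-2 line, and Itga3 was at -1.02 and 4.59. Lamc1 was at -1.06 and 1.54, and Col9a3 at 1.09 and -2.33. In the Nkx2-2 line the contrast rested on 12 and 19 cells. There 62.3% of the Col5a2 reads of the Sspo-high cells came from 1 cell, 47.7% of those of Itga3, 51.6% of those of Lamc1 and 72.7% of those of Col9a3.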

How the results depend on the processing

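Counts of called members depended most on the size rule, and a count after the word from is the reported one. The share of all genes called was computed only under the reported rule. Whether the member counts below moved more than those of all genes was therefore not tested. At 1 CPM in place of 10, the lateral ventricle had 7 higher (from 4) and 10 lower (from 4), the third ventricle 11 higher (from 3), the midbrain 2 higher (from 1) and 9 lower (from 5), the spinal cord 5 higher (from 3) and 24 lower (from 9), the Sspo-high cells 13 higher (from 5) and the Mog-high cells 8 higher (from 2). At 20 CPM, higher members fell to 2 in the lateral ventricle and 0 in the midbrain, and lower members of the Sspo-high cells to 7 from 12. At 4-fold the counts (higher, then lower) were 1 and 1 in the lateral ventricle, 1 and 0 in the third ventricle and 0 and 1 in the midbrain, with 4 lower in the spinal cord and 2 higher in the Sspo-high cells. Against the highest or lowest other region in place of the mean they were 1 and 0, 1 and 0, and 0 and 0 in the first 3 regions, with 3 lower in the spinal cord.

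Without cells at 100 CPM of vascular, fibroblast and microglial markers, higher members were 6 in the third ventricle, 3 in the midbrain and 5 in the spinal cord. Added after the data were seen, leaving Acta2 and Tagln out of that filter gave 2 in the midbrain, as did leaving out the Ccdc153-high cells with high Sspo. Doubled class thresholds also gave 2 there, the mean of per-cell CPM gave 3 lower in the midbrain, and the first project's midbrain wells gave 1 higher in the third ventricle. In the Mog-high cells, medians of ratios gave 6 higher and the deposited normalized values 5. Without the top cell of each gene, 10 were lower there, and the Nkx2-2 line other cells had 14 members at 10 CPM, from 23.

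Leaving out 1 block gave ranges, lowest to highest, of 4 to 4 higher and 3 to 4 lower in the lateral ventricle, 1 to 8 and 3 to 4 in the third ventricle, 1 to 2 and 4 to 7 in the midbrain, 3 to 4 and 7 to 9 in the spinal cord, 5 to 7 and 10 to 12 in the Sspo-high cells, and 2 to 5 and 16 to 18 in the Mog-high cells. Only calls of members named by the rule above were followed for a change of sign, and 1 did change. Col1a2, Mog-high over other, was -3.30 (log2) and ranged from -3.94 to 0.29, the last without Nkx2-2 line block 4. Itgb7, which was not among those members, was lower in the Mog-high cells (2.72 against 15.8 CPM). Without the cell with the most reads it was at 0.88 (log2). Of the other 255 counts recomputed without leaving out a block, 216 stayed within 1.5 times. The cause of these changes was not tested. No paired analysis was possible because each group held 1 sample. With 1 sample per group, depth sets only the counting error, and no spread between animals can be given.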

Other observations

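The 34 other cells of the Foxj1 line midbrain were in no comparison. They had 29 members at 10 CPM or more, among them Lamb2 at 199.6 CPM, Lama2 at 111, Itgb8 at 74.3, Col9a2 at 74.9, Col1a2 at 67.3, Col4a5 at 52.9 and Itga7 at 51.3 CPM. Their ependymal markers, of which Ccdc153 was under its threshold by rule, summed to 1564 CPM. Their astrocyte markers summed to 3774 CPM and their microglial markers to 448 CPM. Divided after the values were seen, 2 cells had Csf1r plus Mrc1 at 100 CPM or more, 21 of the rest had Gjb6 at 100 CPM or more, and 11 had neither. The Gjb6-high cells held Lama2 at 126 CPM, Col9a2 at 106, Itga7 at 78.2 and Col1a1 at 60.8 CPM. Itga7 and Col1a1 were also read in the Gjb6-high cells of the Nkx2-2 line, at 214 and 87.1 CPM, but Lama2 there had 17.7 CPM and Itga6 had 208 CPM against 34.5 CPM in these. Over all other cells of the Foxj1 line midbrain and then of the Nkx2-2 line, 1 cell held 24% and 26.3% of the Itga7 reads. The shares were 58% and 43% for Col1a1, 18.5% and 92.8% for Lama2, and 62.6% and 29.7% for Itga6.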
